A study of Rattus norvegicus with 44 samples.

Results

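Collagen genes and the genes whose products modify, fold, cut and crosslink collagen chains were followed in rat cortex after permanent occlusion of the middle cerebral artery (pMCAO). The members were all 24 gene symbols of the normalised table that are written as a collagen type and chain (Col1a1, Col4a5 and so on), grouped as 9 fibrillar, 6 basement membrane and 9 other collagens, together with 25 collagen-processing genes from a list of 34. Those 49 genes were part of 12096 gene symbols with a tested probe, and each of the 24 collagens and 25 processing genes had a probe that passed the filter on low signals. The other 9 genes of the processing list were not among the symbols of that table. Members had to be in the authors' filtered table of 20395 probes, whereas the shares of all symbols given below come from 30538 probes kept here. Member counts and those shares therefore come from sets that were filtered differently, and the effect of this was not tested.

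Gene expression was measured on 44 one-colour arrays, 4 in each of 11 groups, and every array held cortical RNA pooled from 3 adult Sprague-Dawley rats. The core and the periinfarct cortex around it, and the contralateral cortex, were taken from the same pools of ischemic rats, 4 pools at 24 h (pools 1 to 4) and 4 at 3 d (pools 9 to 12). Ipsilateral and contralateral cortex came from sham-operated rats at 24 h and 3 d, and ipsilateral cortex from unoperated healthy rats (pools 17 to 20). The right artery of the ischemic rats was permanently ligated, with transient occlusion of both carotid arteries per the study's methods. Sham-operated rats had the same surgery without occlusion. A pool hides the spread between its 3 rats, so the errors and p-values below describe the spread between pools. That spread was estimated jointly over all 11 groups. It can therefore understate the spread of a group whose pools differ widely. In whole tissue, fewer cells of a type and less RNA per cell cannot be told apart.

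Collagens are trimers of alpha chains. The fibrillar collagens are types I, II, III, V, XI, XXIV and XXVII. Of these, types I, III and V build the banded fibrils of scar, dura and vessel adventitia. Type IV collagens form the sheet-like network of basement membranes, and types XV and XVIII sit at the basement membrane zone. Inside the endoplasmic reticulum, prolyl and lysyl residues are hydroxylated and the trimer is folded with chaperones. After secretion, the fibrillar propeptides are cut off and lysyl oxidases crosslink the chains. In normal cortex, collagens are found mainly in the vessel wall and the meninges.

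Promoter sequences are shown for members the results turn on: Col1a2, which fell and later rose in the core, Col8a1, which had the largest rise, and the gap between Col4a1 and Col4a2, a pair transcribed away from each other from the same stretch of DNA. The sequences are those of RefSeq (GRCr8). They run up to the base before the start of the gene for Col8a1 and cover the first 110 bases of the 250-base window for Col1a2, which lies at chr4:33518307-33518416 (plus strand). The Col8a1 window is chr11:56246532-56246781 (plus strand), and the 76 bases between the starts of Col4a2 (minus strand) and Col4a1 (plus strand) are chr16:84885521-84885596, written on the plus strand. Capitals mark TATAAA, the letters of the CCAAT box, which read ATTGG when it lies on the opposite strand, and those of the GC box GGGCGG, which read CCGCCC when it does.
Col1a2: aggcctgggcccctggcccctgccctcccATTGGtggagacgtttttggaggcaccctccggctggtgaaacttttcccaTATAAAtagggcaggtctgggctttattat
Col8a1: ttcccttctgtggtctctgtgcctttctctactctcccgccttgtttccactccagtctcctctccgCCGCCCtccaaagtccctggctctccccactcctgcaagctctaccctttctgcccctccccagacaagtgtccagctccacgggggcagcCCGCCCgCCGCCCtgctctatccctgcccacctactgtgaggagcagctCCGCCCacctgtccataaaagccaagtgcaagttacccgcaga
between Col4a2 and Col4a1: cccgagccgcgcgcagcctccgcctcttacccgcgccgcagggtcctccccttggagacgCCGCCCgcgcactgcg

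The Col1a2 stretch held 1 CCAAT and 1 TATAAA, the Col8a1 window 4 copies of GGGCGG, and the stretch between the type IV genes 1 copy. Of the 24 collagens, 20 had a promoter window in RefSeq. On either strand of the 250 bases before the start, 4 of those 20 held CCAAT, 13 held GGGCGG and 1 held TATAAA. In all 33469 promoter windows the shares were 34% for CCAAT, 30.5% for GGGCGG and 12.9% for TATAAA. Of the 21 processing genes with a window, 4 held CCAAT, 16 held GGGCGG and 1 held TATAAA. A match is a description of the letters and not of a bound site.

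Between 62.5% and 77.7% of the spots of an array were well above background, and the lowest share was that of core pool 11 at 3 d. The arrays of pool 11 at 3 d were the lowest of their groups in the summed level of 8 microglia and macrophage markers. This level, the log2 of the summed signals, was 14.39 in the core (median of 4 arrays 14.99, highest 15.38). In the periinfarct it was 12.40 (median 14.33, highest 14.64), against 11.64 to 11.82 in healthy cortex. The core value was the low end of its group, and the periinfarct value lay further below its median. Counts of calls are therefore also given without the core and periinfarct arrays of pool 11. A gene was called when its limma p, adjusted over 30538 probes with the Benjamini-Hochberg method, was below 0.05 and the difference at least 2-fold. All levels are log2 signals of 1 probe after quantile normalization, and all differences are log2 differences of group means with their standard error (SE). With 4 arrays in a group, the number of arrays limits the precision.

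**Figure D1:**
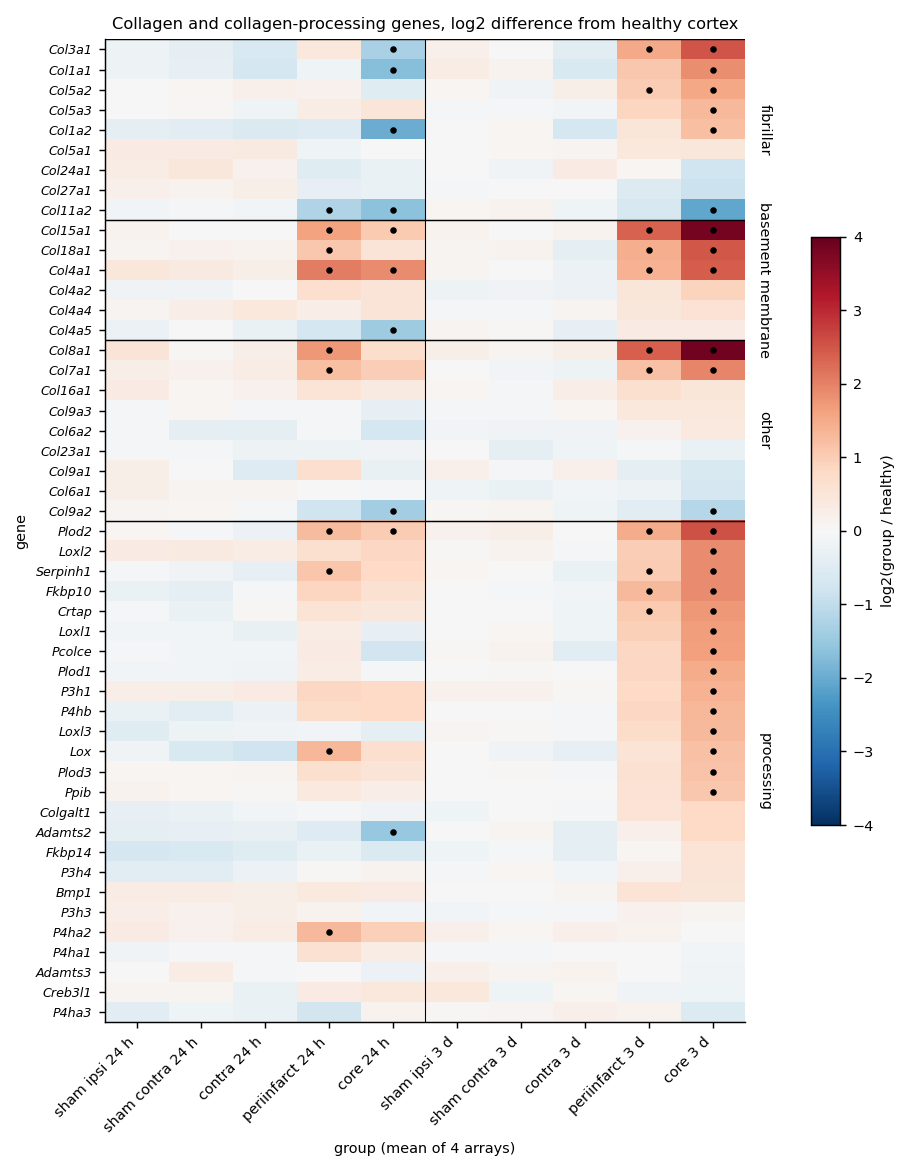
Mean log2 difference from healthy cortex of the 49 genes (vertical axis, by class) in the 10 other groups (horizontal axis, mean of 4 arrays each); red is higher, blue lower, and a dot marks a call by limma. The dots lie in the core and periinfarct columns, and no gene is marked in a sham or contralateral column.

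At 24 h collagens were called in both directions in the core. The fibrillar chains Col1a2, Col1a1 and Col3a1, which make type I and type III collagen, and Col11a2, a chain of type XI collagen, fell, by 1.31 to 1.98 on the log2 scale. In the same arrays the basement membrane genes Col4a1 and Col15a1 rose 3.67-fold and 2.09-fold. Col4a5, another type IV chain, and Col9a2, a chain of the fibril-associated type IX collagen, fell. In all, 2 of 24 collagens rose and 6 fell, where 7.4% of all gene symbols rose and 6.66% fell, so that the share that rose was near that of all genes and the share that fell above it. The median difference was -0.49 over the 9 fibrillar, 0.52 over the 6 basement membrane and -0.15 over the 9 other collagens, beside -0.18 over all symbols.

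Col1a2 had log2 signals of 11.78, 12.14, 11.92 and 12.08 in healthy cortex and of 10.19, 10.90, 8.75 and 10.14 in the core at 24 h. The partner chain of type I collagen, Col1a1, had 10.74, 11.17, 10.87 and 10.96 in healthy cortex and 9.67, 10.11, 8.14 and 8.95 in the core. Every core array lay below every healthy array for both chains. Col1a2 fell by 1.98 (SE 0.39, adjusted p = 0.000217 by limma) and Col1a1 by 1.72 (SE 0.41, adjusted p = 0.00178 by limma), a 3.96-fold and a 3.28-fold difference. Core pool 3 was the lowest array for each.

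Col3a1 encodes the single chain of type III collagen, the fibrillar partner of type I in vessel walls. It had log2 signals of 10.63, 10.64, 10.35 and 10.78 in healthy cortex and 9.46, 10.37, 7.68 and 9.67 in the core at 24 h. Core pool 2 reached into the healthy range, so that the groups overlapped. Its fall of 1.31 (SE 0.47, adjusted p = 0.0327 by limma) no longer passed the threshold without core pool 3, or without healthy pool 17, 18 or 20.

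Col11a2 was below healthy cortex in the core at both times. Its log2 signals were 12.02, 12.61, 12.27 and 12.67 in healthy cortex, 10.80, 10.81, 10.64 and 10.78 in the core at 24 h and 11.34, 11.25, 11.66 and 10.53 in the periinfarct at 24 h. At 3 d the values were 10.03, 9.49, 11.64 and 10.16 in the core and 11.93, 10.94, 12.82 and 11.29 in the periinfarct. The arrays of the core at both times, and of the periinfarct at 24 h, were all below the healthy ones, while periinfarct pool 11 at 3 d lay above them. In the core, Col11a2 differed by -1.64 at 24 h (SE 0.36, adjusted p = 0.000756) and -2.06 at 3 d (adjusted p = 1.16e-05), and in the periinfarct by -1.20 (adjusted p = 0.00844) and -0.65 (adjusted p = 0.231), by limma. Without pool 11, Col11a2 was also called in the periinfarct at 3 d, at -1.01 (adjusted p = 0.011 by limma), and without periinfarct pool 4 it was not called there at 24 h.

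Markers of fibroblasts, cells that make type I and III collagen, moved with the fibrillar chains in the core at 24 h. Of 12 listed markers 10 were tested, and 7 of those 10 fell there and none rose, where 6.66% of all symbols fell and 7.4% rose, with a median of -1.94. The largest falls were those of Cilp, Slc22a6 and Ogn, at -3.82, -3.80 and -3.79, and the widely used fibroblast marker Pdgfra, which oligodendrocyte precursors also express, was at -1.22. Dcn, the small proteoglycan decorin, was at -0.78 (adjusted p = 0.15 by limma). Each of the 10 markers was well above background on at least 34 of 44 arrays. The summed level of the 10 was 13.51 to 13.57 in healthy cortex and 11.33 to 12.69 in the core at 24 h, without overlap. Igf2, the brightest of the 10 in healthy cortex at 12.87, weighs most in the healthy value. The part of these cells in the collagen values was not tested.

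Among the basement membrane genes, Col4a1 rose at both times and in both areas by its first probe. It encodes the alpha 1 chain of the most widespread type IV trimer. Log2 signals were 9.65, 9.18, 9.07 and 9.83 in healthy cortex, 10.95, 11.45, 11.20 and 11.65 in the core at 24 h and 10.97, 11.00, 11.94 and 11.99 in the periinfarct at 24 h. At 3 d they were 12.01, 12.07, 10.71 and 12.65 in the core and 11.26, 11.95, 9.49 and 10.58 in the periinfarct. Every array of the first 3 of these areas was above the healthy ones, and periinfarct pool 11 at 3 d fell inside the healthy range. Col4a1 was higher by 1.88 (SE 0.37, adjusted p = 0.000264) and 2.04 (adjusted p = 6.43e-05) in core and periinfarct at 24 h, and by 2.43 (adjusted p = 1.86e-06) and 1.38 (adjusted p = 0.00922) at 3 d, by limma, and the last of these calls was lost without periinfarct pool 10.

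A second Col4a1 probe, well above background, did not show this. Against healthy cortex this probe differed by -0.09 in the core and 0.09 in the periinfarct at 24 h, and by 0.06 and -0.11 in these areas at 3 d (adjusted p from 0.77 to 0.833 by limma). Which of the probes measures the transcript was not tested. The neighbour Col4a2, the alpha 2 chain of the same trimer, was higher by 0.53 (adjusted p = 0.104) and 0.68 (adjusted p = 0.0292) at 24 h and by 0.90 (adjusted p = 0.00279) and 0.48 (adjusted p = 0.193) at 3 d, and was not called because no difference reached 2-fold.

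Col4a5 belongs to the alpha 3, 4 and 5 trimer of specialised basement membranes and to the alpha 5 and 6 trimer. In healthy cortex its log2 signals were 7.39, 7.11, 7.35 and 7.75, and in the core at 24 h 5.70, 6.44, 5.45 and 6.27. All core arrays were lower, by 1.44 in the mean (SE 0.23, adjusted p = 1.29e-05 by limma). With normexp background correction this fall was not called. The periinfarct arrays were at 6.47, 7.08, 6.45 and 6.85 at 24 h (-0.69, adjusted p = 0.017 by limma, under 2-fold) and at 7.74, 8.45, 7.30 and 7.47 at 3 d. At 3 d the core arrays were at 7.82, 7.97, 7.50 and 7.67, a rise of 1.77 over 24 h (adjusted p = 2.25e-07 by limma), and the difference from healthy cortex was 0.34 and not called.

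In the periinfarct at 24 h, 5 of 24 collagens rose and 1 fell, where 8.52% of all symbols rose and 9.34% fell, and only the share that rose was above that of all genes. The risers were the basement membrane genes Col4a1, Col15a1 and Col18a1 and, among the others, Col8a1 and Col7a1, and the gene that fell was Col11a2. The type I and III chains had log2 signals of 10.74, 11.42, 10.13 and 10.79 (Col1a1), 11.11, 12.08, 10.74 and 11.93 (Col1a2) and 11.04, 11.54, 10.00 and 11.46 (Col3a1) there. Each of these genes overlapped with its healthy range, and none was called: Col1a1 differed by -0.16 (adjusted p = 0.805), Col1a2 by -0.51 (adjusted p = 0.338) and Col3a1 by 0.41, by limma. Medians were -0.17 for fibrillar, 0.88 for basement membrane and 0.00 for other collagens, beside -0.12 over all symbols. Without periinfarct pool 4, which was among the highest arrays for several of these genes, 3 collagens were called in place of 6.

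**Figure D2:**
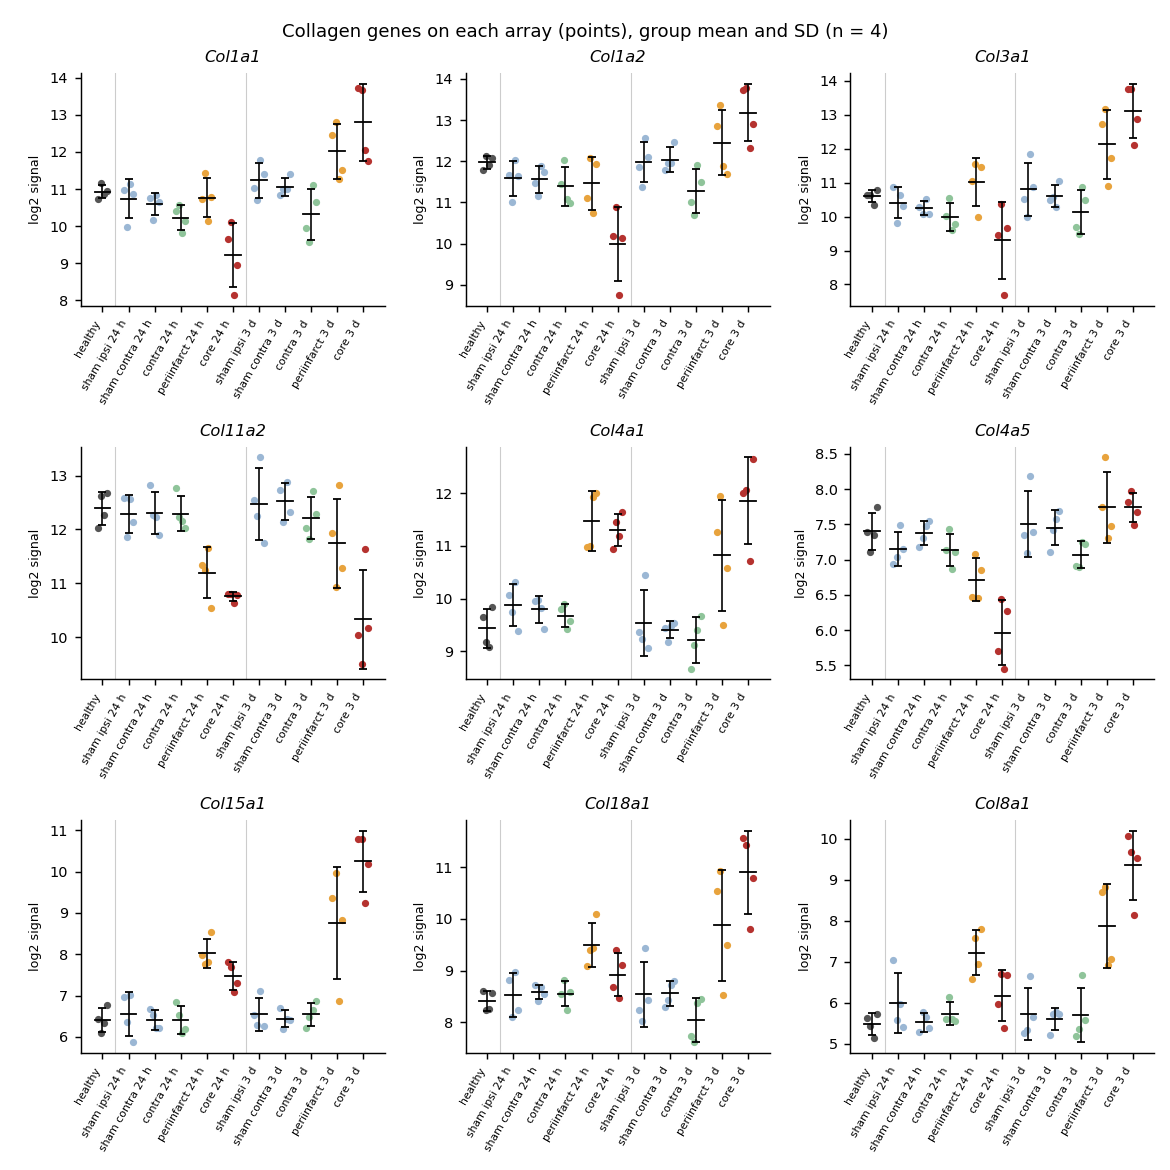
Log2 signal (vertical axis) of 9 collagen genes on each array (points) of the 11 groups (horizontal axis), with the group mean and SD (n = 4). Col1a1, Col1a2 and Col3a1 were lowest in the core at 24 h and highest in the core at 3 d, while Col11a2 was low at both times.

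At 3 d most of the called collagens were higher than in healthy cortex, and the largest differences were in the core. Of 24 collagens 10 rose and 2 fell in the core, where 15.7% of all symbols rose and 12.5% fell, so that the share that rose was above that of all genes and the share that fell below it. The risers were the fibrillar chains Col3a1, Col1a1, Col5a2, Col5a3 and Col1a2, the basement membrane genes Col15a1, Col18a1 and Col4a1, and Col8a1 and Col7a1, and the genes that fell were Col11a2 and Col9a2. In the periinfarct 7 rose and none fell, where 7.97% of all symbols rose and 1.17% fell. Those 7 were Col3a1, Col5a2, Col15a1, Col18a1, Col4a1, Col8a1 and Col7a1.

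Col8a1, the alpha 1 chain of a short-chain collagen of vessel walls and of Descemet's membrane, had the largest difference of any collagen. In healthy cortex its log2 signals were 5.63, 5.42, 5.14 and 5.72, and in the core at 3 d 10.06, 9.68, 8.14 and 9.52. The core arrays at 24 h were at 5.96, 6.69, 5.38 and 6.67, and the periinfarct arrays at 6.58, 7.57, 6.95 and 7.79 at 24 h and 8.71, 8.82, 6.91 and 7.06 at 3 d. Only the core at 24 h overlapped with healthy cortex among these 4 areas. The rise was 3.87 in the core at 3 d (SE 0.42, adjusted p = 3.88e-09 by limma), or 14.7-fold, and 2.40 in the periinfarct (adjusted p = 0.000131 by limma), or 5.27-fold. At 24 h it was 0.70 (adjusted p = 0.221) in the core and 1.74 (adjusted p = 0.00138) in the periinfarct, by limma.

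Col15a1 and Col18a1 encode the multiplexins, collagens with heparan sulphate or chondroitin sulphate chains, and the end of Col18a1's protein is released as endostatin. Col15a1 log2 signals were 6.44, 6.09, 6.34 and 6.78 in healthy cortex, 7.82, 7.70, 7.08 and 7.29 in the core at 24 h and 10.79, 10.79, 9.23 and 10.18 in the core at 3 d. Periinfarct arrays read 7.98, 7.77, 7.82 and 8.53 at the early and 9.36, 9.98, 6.86 and 8.84 at the late time. No array of these 4 areas overlapped with healthy cortex, and the lowest at 3 d was periinfarct pool 11. The core difference was 1.06 at 24 h (SE 0.38, adjusted p = 0.0355 by limma) and 3.84 at 3 d (adjusted p = 8.49e-10 by limma), which is 14.3-fold, and the 24 h call was lost when any of core pools 1 and 2 or healthy pools 17, 18 and 19 was left out. The periinfarct differences were 1.61 (adjusted p = 0.00119) and 2.35 (adjusted p = 5.25e-05), by limma.

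For Col18a1 the healthy arrays were at 8.61, 8.25, 8.26 and 8.56, the core arrays at 8.69, 9.40, 8.47 and 9.12 at 24 h and at 11.56, 11.44, 9.81 and 10.80 at 3 d. The periinfarct arrays were at 9.09, 9.40, 9.43 and 10.10 at 24 h and at 10.54, 10.94, 8.54 and 9.50 at 3 d. Core pool 3 at 24 h and periinfarct pool 11 at 3 d lay in the healthy range. Col18a1 rose in the core at 3 d (2.48, SE 0.37, adjusted p = 9.41e-07) and in the periinfarct at 24 h (1.09, adjusted p = 0.0192) and 3 d (1.46, adjusted p = 0.00513), by limma, and was at 0.50 in the core at 24 h (adjusted p = 0.319). The periinfarct calls were lost without periinfarct pool 4 at 24 h and without periinfarct pool 10 at 3 d.

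The type I and III chains were above healthy cortex in the core at 3 d. Col3a1 had 13.75, 13.75, 12.10 and 12.87 there, Col1a1 13.72, 13.66, 12.05 and 11.77, and Col1a2 13.73, 13.77, 12.32 and 12.90. For each of these 3 genes, every core array was above every healthy array. Col3a1 was 5.72-fold higher (2.52, SE 0.47, adjusted p = 2.95e-05), Col1a1 3.65-fold (1.87, SE 0.41, adjusted p = 0.000274) and Col1a2 2.30-fold (1.20, SE 0.39, adjusted p = 0.0105), by limma. The Col1a2 call was lost without core pool 9 or core pool 10. Col5a2 and Col5a3, chains of type V collagen, which regulates the width of type I fibrils, rose by 1.54 (adjusted p = 1.69e-05) and 1.31 (adjusted p = 2.17e-05), by limma.

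In the periinfarct at 3 d, Col3a1 had log2 signals of 12.72, 13.17, 10.90 and 11.73, Col1a1 of 12.46, 12.81, 11.28 and 11.51, and Col1a2 of 12.85, 13.36, 11.90 and 11.70. Col3a1 and Col1a1 lay above the healthy arrays on all 4 periinfarct arrays, and Col1a2 did not. The differences were 1.53 for Col3a1 (adjusted p = 0.0208), 1.08 for Col1a1 (adjusted p = 0.0658) and 0.47 for Col1a2 (adjusted p = 0.464), by limma. Without pool 11 Col1a1 was called as well, at 1.33 (adjusted p = 0.0183 by limma). The count of 7 collagens called in the periinfarct became 2 without periinfarct pool 10, 4 without periinfarct pool 9 or healthy pool 19, and 10 without pool 11. None of the 7 was called when only the arrays of the groups compared were fitted.

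Col7a1, the collagen of anchoring fibrils, had log2 signals of 6.04, 5.45, 5.39 and 6.54 in healthy cortex, 7.00, 6.59, 7.19 and 7.49 in the periinfarct at 24 h and 8.15, 7.93, 7.13 and 8.04 in the core at 3 d. These areas did not overlap with healthy cortex, whereas the core at 24 h (6.58, 7.21, 6.01 and 7.53) and the periinfarct at 3 d (7.57, 8.04, 5.93 and 6.63) did. It rose by 1.21 (SE 0.39, adjusted p = 0.0136), 1.96 (adjusted p = 7.25e-05) and, in the periinfarct at 3 d, 1.19 (adjusted p = 0.0308), and was at 0.98 in the core at 24 h (adjusted p = 0.0549), by limma. The periinfarct calls were lost at 24 h without healthy pool 19 or periinfarct pool 4, and at 3 d without healthy pool 18 or 19 or periinfarct pool 9 or 10.

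Col9a2 went the other way. Its log2 signals were 10.01, 9.80, 9.69 and 10.06 in healthy cortex, 8.75, 8.81, 8.15 and 8.30 in the core at 24 h and 8.25, 8.61, 9.32 and 8.85 in the core at 3 d. The periinfarct arrays were at 9.13, 9.18, 9.14 and 8.96 at 24 h and at 9.48, 9.40, 9.98 and 9.00 at 3 d. All core arrays were below all healthy ones. The fall was 1.39 (SE 0.22, adjusted p = 1.21e-05) at 24 h and 1.13 (adjusted p = 5.5e-05) at 3 d in the core, and the periinfarct difference at 24 h, -0.79 (adjusted p = 0.00495), was under 2-fold, by limma. The call at 3 d was lost without core pool 9. An unnamed probe described as type IX alpha 2 procollagen did not show the fall. In the core it differed by -0.07 at 24 h and 0.49 at 3 d and was not called.

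**Figure D3:**
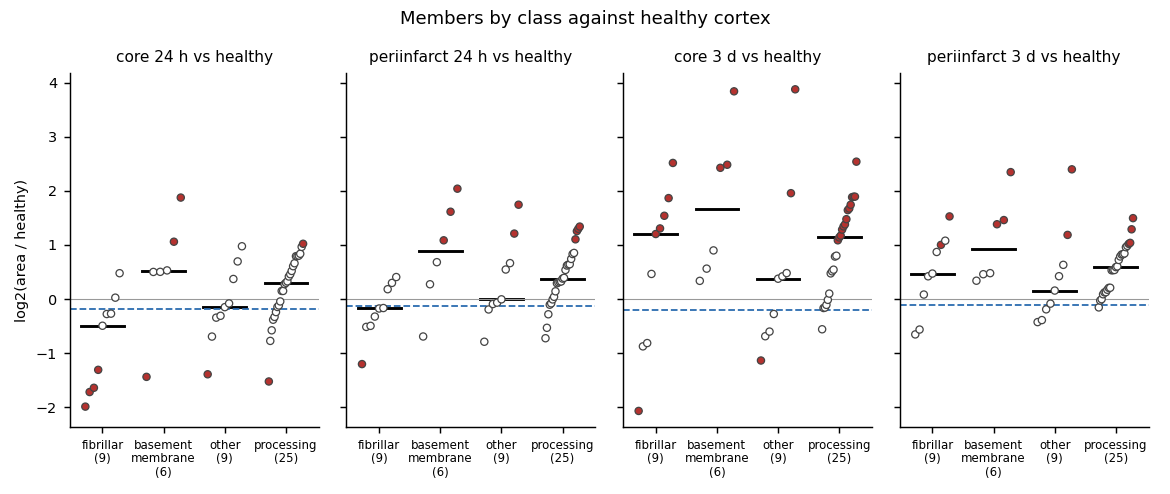
Log2 difference from healthy cortex (vertical axis) of each member by class (horizontal axis, number of genes in brackets) in the 4 ischemic areas; filled points were called by limma, black bars are class medians and the dashed line is the median of all symbols. The fibrillar median goes from -0.49 in the core at 24 h to 1.20 at 3 d.

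By class, the core medians at 3 d were 1.20 for fibrillar, 1.66 for basement membrane and 0.38 for other collagens, beside -0.20 over all symbols, and the periinfarct medians 0.47, 0.93 and 0.16, beside -0.11. Within the basement membrane class the 4 type IV genes alone had medians of 0.52 and 0.48 in core and periinfarct at 24 h and of 0.73 and 0.47 at 3 d, each with 1 gene, Col4a1, called higher. The 10 collagens that were called neither against healthy cortex nor between areas or times were Col5a1, Col24a1, Col27a1, Col4a2, Col4a4, Col6a1, Col9a1, Col9a3, Col16a1 and Col23a1. Their differences lay between -1.05 (Col9a1) and 0.90 (Col4a2).

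At 3 d other cell markers moved as well. Of the 8 microglia and macrophage markers 7 rose in the core and 6 in the periinfarct, with medians of 2.08 and 1.71, and the 3 proliferation markers rose in both areas, where 15.7% of all symbols rose and 12.5% fell in the core and 7.97% rose in the periinfarct. Of the 10 fibroblast markers 3 rose and 3 fell in the core, with a median of 0.24, and their summed level was 12.63 to 13.83, around the healthy range. Of 7 markers of mural cells, the pericytes and smooth muscle cells of vessels, 3 rose in the core, while none of 8 endothelial markers was called there. Of 5 neuron markers 4 fell in the core and 1 in the periinfarct. Their summed level was 13.60 to 15.01 in the core and 14.15 to 15.11 in the periinfarct against 15.67 to 15.75 in healthy cortex, without overlap. Snap25, the brightest of the 5 in healthy cortex at 15.44, weighs most in the healthy value. Of 6 astrocyte markers 1 rose in each area, and their summed level was 14.38 to 14.66 in the core and 14.35 to 15.04 in the periinfarct, above the 13.99 to 14.33 of healthy cortex. The part of these cells in the collagen values was not tested.

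The change between times was tested directly. In the core 9 of 24 collagens were higher at 3 d than at 24 h and none was lower, where 12.1% of all symbols were higher and 4.37% lower. The largest were Col3a1, at 3.82 (SE 0.47, adjusted p = 8.53e-08) or 14.1-fold, Col1a1, at 3.58 (SE 0.41, adjusted p = 2.64e-08) or 12.0-fold, Col1a2, at 3.19 (SE 0.39, adjusted p = 8.53e-08) or 9.11-fold, and Col8a1, at 3.18 (SE 0.42, adjusted p = 3.84e-07) or 9.05-fold, by limma. Col15a1 (2.78), Col5a2 (2.03), Col18a1 (1.98), Col4a5 (1.77) and Col6a2 (1.07), a chain of the beaded filaments of type VI collagen, made up the 9. Col4a1 differed by 0.55 between times (adjusted p = 0.282 by limma). In the same comparison 9 of 10 fibroblast markers rose, with a median of 2.35, and their part was not tested.

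In the periinfarct 2 collagens, Col1a1 (1.24, SE 0.41, adjusted p = 0.0347) and Col4a5 (1.03, SE 0.23, adjusted p = 0.00158), were higher at 3 d than at 24 h by limma, where 4.57% of all symbols were higher. With only the arrays compared in the fit neither was called. The Col1a1 arrays of the 2 times overlapped, since pool 2 at 24 h (11.42) was above pool 11 at 3 d (11.28). The count was 0 without periinfarct pool 1 or 3 at 24 h or pool 10 at 3 d, 1 without pool 4 at 24 h or pool 9 at 3 d, and 5 without pool 11 at 3 d, when Col15a1, Col1a2 and Col3a1 were called too.

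Core and periinfarct tissue of the same rats could be set against each other within pools. At 24 h no collagen was called by limma, where 0.0413% of all symbols were higher and 0.116% lower in the core. At an unadjusted p below 0.05 none was higher and 8 were lower. The share of all symbols at that looser threshold was not counted. With the pool as a random block, 3 were called lower in the core: Col1a1 (-1.55, SE 0.36, adjusted p = 0.0232), Col1a2 (-1.47, SE 0.34, adjusted p = 0.0211) and Col3a1 (-1.71, SE 0.41, adjusted p = 0.0271). With the pool as a fixed block none was. Without core pool 2, 3 were called. In all 4 pools Col3a1 was lower in the core, by between -2.32 and -1.17, Col1a1 by between -1.99 and -1.07 and Col1a2 by between -1.99 and -0.92. Altogether 10 of 24 collagens were lower in the core in every pool and 0 were higher, where 11.7% of all symbols were lower and 14% higher in every pool.

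At 3 d collagens were called higher in the core. By limma Col15a1 (1.49, SE 0.38, adjusted p = 0.0104) and Col8a1 (1.48, SE 0.42, adjusted p = 0.0177) were higher in the core and Col11a2 (-1.41, SE 0.36, adjusted p = 0.00964) was lower, where 4.59% of all symbols were higher and 0.62% lower. The arrays of the areas overlapped for each of the 3 genes, but within every pool Col15a1 was higher in the core, by 0.82 to 2.37, and so was Col8a1, by 0.87 to 2.46. With the pool as a random block Col18a1 (1.02, adjusted p = 0.0209) and Col4a1 (1.04, adjusted p = 0.0214) were called in addition, and with a fixed block Col18a1 (adjusted p = 0.0436). The random block assumed a correlation of 0.22 within pools, whereas core and periinfarct arrays of a pool correlated at -0.00417 on average at 3 d. Left out singly, core pool 9, core pool 10 or periinfarct pool 11 took the count of 3 to 0, as did a fit of only the arrays compared, and periinfarct pool 9, core pool 11 and periinfarct pool 10 took it to 5, 6 and 8. Of 24 collagens 8 were higher and 3 lower in the core in every pool, where 17.5% of all symbols were higher and 16.2% lower.

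**Figure D4:**
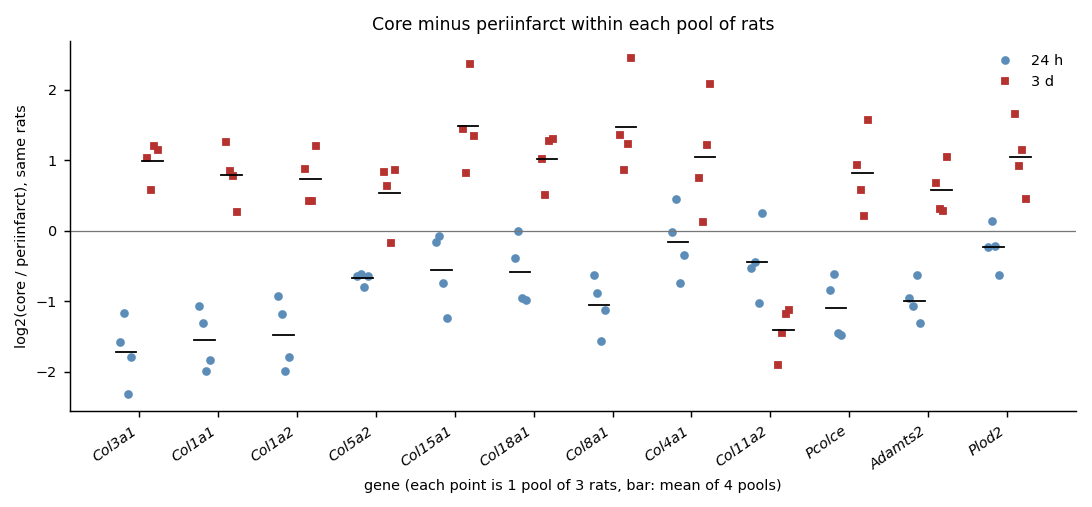
Log2 difference of core minus periinfarct (vertical axis) within each pool of 3 rats (points; bar: mean of 4 pools) for 9 collagens and 3 processing genes (horizontal axis) at 24 h (circles) and 3 d (squares). Col3a1, Col1a1, Col1a2, Col15a1, Col18a1 and Col8a1 lie below 0 in every pool at 24 h and above 0 in every pool at 3 d, while Col11a2 is lowest at 3 d. In pool 2 at 24 h Col18a1 (-0.001) and Col15a1 (-0.074) lie almost at 0.

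The change of the difference between areas from 24 h to 3 d was then tested as an interaction. It was called for 7 of 24 collagens, each shifting towards the core, where 2.87% of all symbols shifted that way and 3.03% the other way. They were Col3a1 (2.70, SE 0.66, adjusted p = 0.0169), Col8a1 (2.53, SE 0.60, adjusted p = 0.0157), Col1a1 (2.34, SE 0.58, adjusted p = 0.0175), Col1a2 (2.20, SE 0.55, adjusted p = 0.0181), Col15a1 (2.05, SE 0.54, adjusted p = 0.0232), Col18a1 (1.61, SE 0.52, adjusted p = 0.0461) and Col5a2 (1.21, SE 0.39, adjusted p = 0.0447), by limma. With the pool as a fixed block none was called, with adjusted p from 0.0883 to 0.106 for the 7, and none with only the arrays of the groups compared in the fit. With a random block 8 collagens were called, the 7 with adjusted p from 0.00344 to 0.0156 and Col24a1, a fibrillar chain, which shifted towards the periinfarct (-1.11, adjusted p = 0.0447 by limma). The count of 7 became 0 without core pool 9 or periinfarct pool 11 at 3 d, 2 without core pool 10 at 3 d and 4 without periinfarct pool 4 at 24 h. Col18a1 and Col5a2 each lost the call in 11 of 16 fits that left out 1 array. Without both arrays of pool 11 the count was 7. In every pool the core was below the periinfarct at 24 h and above it at 3 d for 6 of 24 collagens and 5 of 25 processing genes, where 2.29% of all symbols did so. The 6 collagens were Col3a1, Col1a1, Col1a2, Col15a1, Col18a1 and Col8a1, and the 5 processing genes Adamts2, Pcolce, Loxl1, Fkbp10 and Plod1. In pool 2 at 24 h the difference was very small for Col18a1 (-0.001), Fkbp10 (-0.009), Plod1 (-0.039) and Col15a1 (-0.074).

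Most of the calls among processing genes were rises in the core at 3 d. At 24 h 1 of 25 rose and 1 fell in the core, each below the 7.4% and 6.66% of all symbols, and 4 rose in the periinfarct, where 8.52% of all symbols did. At 3 d 14 rose and none fell in the core, where 15.7% of all symbols rose, and 4 rose in the periinfarct, where 7.97% did. The core medians were 0.30 at 24 h and 1.14 at 3 d, and the periinfarct medians 0.38 and 0.59. In the core 11 of 25 were higher at 3 d than at 24 h and none was lower, where 12.1% and 4.37% of all symbols were: Pcolce, Adamts2, Loxl1, Loxl3, Plod1, Plod2, Crtap, Fkbp10, Fkbp14, Serpinh1 and Loxl2.

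Hydroxylation and glycosylation begin the work on the nascent chain. Plod2 encodes a lysyl hydroxylase that acts on the telopeptides and so sets the kind of crosslink. Its log2 signals were 3.15, 3.36, 3.20 and 3.08 in healthy cortex, 3.67, 4.34, 4.49 and 4.39 in the core at 24 h and 6.67, 6.14, 4.63 and 5.51 in the core at 3 d. The periinfarct gave 3.91, 4.20, 4.70 and 5.01 at 24 h and 5.01, 5.23, 3.48 and 5.06 after 3 d. No array of these areas overlapped with healthy cortex, although the healthy signals were dim and well above background on 3 of 4 arrays. Plod2 rose by 1.02 (SE 0.34, adjusted p = 0.0239) and 1.26 (adjusted p = 0.00432) in core and periinfarct at 24 h and by 2.54 (adjusted p = 2.34e-07) and 1.50 (adjusted p = 0.00236) at 3 d, and was higher in the core than in the periinfarct at 3 d (1.04, adjusted p = 0.0362), by limma. The call in the core at 24 h was lost without core pool 2, 3 or 4 or healthy pool 20. With normexp background correction none of the Plod2 calls against healthy cortex or between areas or times was kept, and the call between areas was also lost with 75th percentile scaling, with the mean of the Plod2 probes, with slide as a block and with only the arrays compared in the fit.

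P4ha2, a catalytic subunit of prolyl 4-hydroxylase, rose at 24 h and was lower again at 3 d. Its log2 signals were 9.90, 10.23, 9.92 and 9.84 in healthy cortex, 10.94, 10.89, 11.04 and 10.89 in the core at 24 h and 11.07, 11.04, 11.26 and 11.72 in the periinfarct at 24 h. At 3 d they were 9.99, 10.07, 9.49 and 10.29 in the core and 10.03, 10.18, 10.29 and 9.91 in the periinfarct. The 24 h arrays were all above the healthy ones, and the 3 d arrays overlapped with them. P4ha2 rose in the periinfarct at 24 h by 1.30 (SE 0.17, adjusted p = 3.7e-07) and was lower there at 3 d than at 24 h by 1.17 (adjusted p = 4.01e-06), by limma, while the core difference at 24 h, 0.97 (adjusted p = 4.6e-05), was just under 2-fold. With time-matched sham cortex as the control, the P4ha2 rise in the periinfarct at 24 h missed the threshold. At 3 d the differences from healthy cortex were -0.01 and 0.13. Of the other prolyl and lysyl hydroxylases and their partners, Crtap (1.74), Plod1 (1.48), P3h1 (1.38), P4hb (1.34), Plod3 (1.14) and Ppib (1.09) rose in the core at 3 d, which with Plod2 makes 7 of 13 genes of this step, where 15.7% of all symbols rose, and Crtap also in the periinfarct (1.04). The Ppib call was lost without core pool 9, and that of Crtap in the periinfarct when periinfarct pool 9 or 10, or healthy pool 18 or 19, was left out. With normexp background correction neither Crtap call against healthy cortex was kept.

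Folding and export follow. Serpinh1 encodes HSP47, a chaperone that binds the folded collagen trimer. Healthy arrays were at log2 10.75, 10.82, 10.71 and 10.95, core arrays at 11.46, 11.92, 11.32 and 11.75 at 24 h and at 13.16, 12.99, 11.86 and 12.79 at 3 d. Periinfarct arrays were at 11.74, 11.77, 11.64 and 12.51 at 24 h and at 12.23, 12.74, 10.62 and 11.73 at 3 d. Only periinfarct pool 11 at 3 d was not above the healthy arrays, and it was below all of them. Serpinh1 rose by 1.10 in the periinfarct at 24 h (SE 0.28, adjusted p = 0.00242), by 1.89 in the core at 3 d (adjusted p = 1.24e-06) and by 1.02 in the periinfarct at 3 d (adjusted p = 0.0114), by limma. In the core at 24 h the difference was 0.80 (adjusted p = 0.0308) and under 2-fold. The call in the periinfarct was lost without periinfarct pool 4 at 24 h, and at 3 d when healthy pool 19 or periinfarct pool 9 or 10 was left out.

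Fkbp10 encodes FKBP65, a prolyl isomerase that partners lysyl hydroxylation. Its log2 signals were 5.32, 5.49, 5.39 and 5.97 in healthy cortex, 7.80, 7.63, 7.05 and 7.22 in the core at 3 d and 7.29, 7.54, 5.64 and 6.85 in the periinfarct at 3 d. All core arrays were above the healthy ones, and periinfarct pool 11 was among them. The rise was 1.88 (SE 0.30, adjusted p = 3.3e-06) and 1.29 (adjusted p = 0.00261) by limma. With normexp background correction neither was called. At 24 h the arrays were at 5.98, 6.18, 5.98 and 6.46 in the core and 6.32, 6.19, 6.48 and 6.59 in the periinfarct, with differences of 0.61 and 0.85, neither called. Fkbp14, a related isomerase, was called between times in the core only (1.12, adjusted p = 0.00141 by limma).

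Propeptide cleavage turns procollagen into collagen. Adamts2 encodes the N-propeptidase of types I to III, and it was the processing gene that fell in the core at 24 h. Log2 signals were 6.33, 6.88, 6.80 and 6.57 in healthy cortex, 5.18, 5.52, 4.86 and 4.95 in the core at 24 h and 7.81, 7.89, 6.74 and 7.29 in the core at 3 d. Periinfarct values were 6.14, 6.59, 5.49 and 6.26 at 24 h, followed at 3 d by 7.13, 7.58, 6.46 and 6.25. The core arrays at 24 h were all below the healthy ones, and core pool 11 at 3 d was within them. Adamts2 fell by 1.52 (SE 0.29, adjusted p = 0.000143) at 24 h, was higher by 2.31 at 3 d than at 24 h (adjusted p = 1.29e-07) and had an interaction of 1.57 (SE 0.41, adjusted p = 0.0209), by limma. With normexp background correction its fall at 24 h and its interaction missed the threshold. The Adamts2 interaction was also lost with slide or pool as a fixed block and with only the arrays compared in the fit. Pcolce, an enhancer of C-propeptide cleavage, rose in the core at 3 d (1.64, adjusted p = 0.000238) and between times (2.41, adjusted p = 2.27e-06), with an interaction of 1.92 (adjusted p = 0.0222), by limma.

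Crosslinking was the step in which all tested genes rose in the core at 3 d: Loxl2, Loxl1, Loxl3 and Lox, 4 of 4 lysyl oxidases, where 15.7% of all symbols rose. Loxl2 had log2 signals of 8.05, 7.63, 7.44 and 8.08 in healthy cortex and of 10.20, 10.09, 8.82 and 9.66 in the core at 3 d. The groups did not overlap, and core pool 11 was the lowest. Loxl2 rose by 1.89 (SE 0.33, adjusted p = 1.05e-05), Loxl1 by 1.67 (adjusted p = 1.41e-06), Loxl3 by 1.28 (adjusted p = 4.64e-05) and Lox by 1.17 (adjusted p = 0.019), by limma. The core arrays of Loxl2 at 24 h were at 8.03, 8.41, 8.68 and 9.44 and the periinfarct arrays at 8.29, 8.41, 8.31 and 8.75, and at 3 d the periinfarct arrays were at 9.20, 9.60, 7.83 and 8.52. These 3 areas differed from healthy cortex by 0.84, 0.64 and 0.98 and were not called. Lox also rose in the periinfarct at 24 h (1.34, adjusted p = 0.0106 by limma), where arrays overlapped. The Lox calls were lost without core pool 9 or 10 at 3 d and without periinfarct pool 4 at 24 h. With normexp background correction the Loxl3 call in the core at 3 d was lost.

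**Figure D5:**
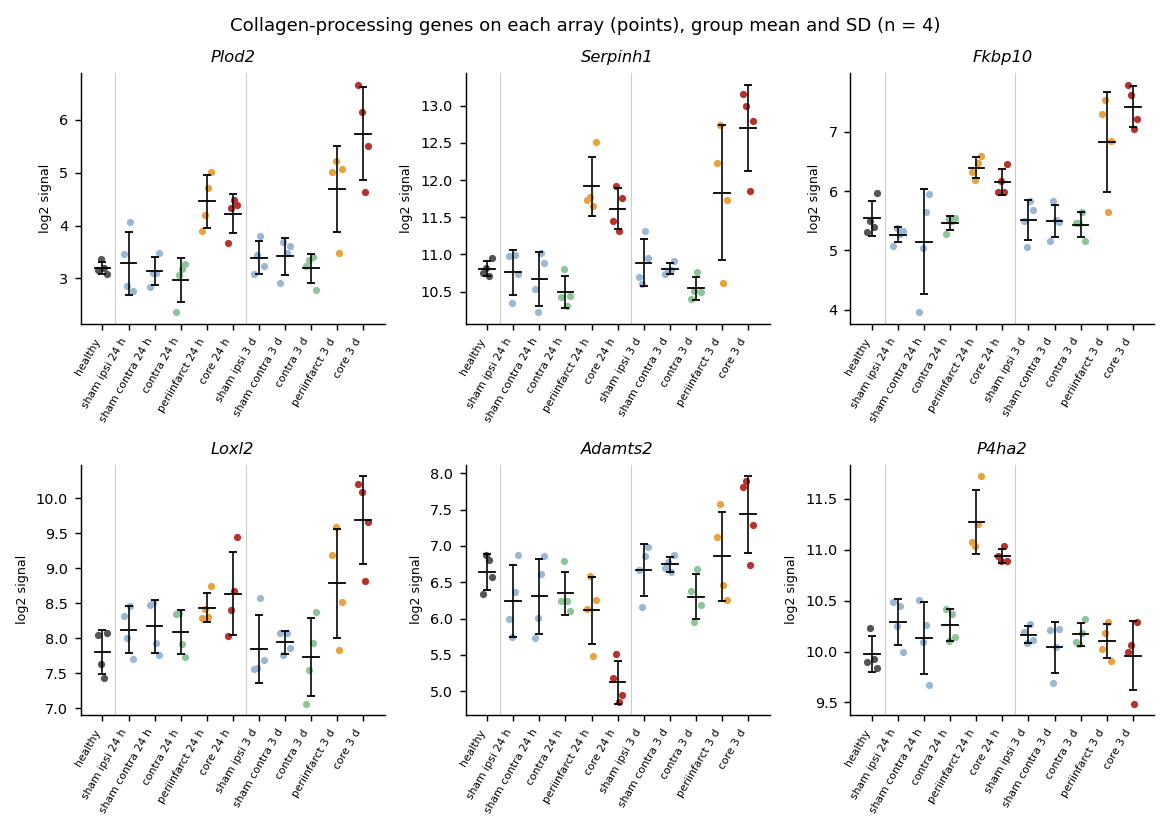
Log2 signal (vertical axis) of 6 collagen-processing genes on each array (points) of the 11 groups (horizontal axis), with the group mean and SD (n = 4). P4ha2 was above the healthy arrays at 24 h and overlapped with them at 3 d, Adamts2 was lowest in the core at 24 h, and the other 4 genes were highest in the core at 3 d.

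Between core and periinfarct, no processing gene was called at 24 h by limma, and Plod2 was called at 3 d. At an unadjusted p below 0.05, 1 was higher and 3 were lower at 24 h, and the share of all symbols at that threshold was not counted. Within pools 7 of 25 processing genes were lower and 1 higher in the core in every pool at 24 h, and 14 were higher and none lower at 3 d. Of all symbols 11.7% were lower and 14% higher in every pool at 24 h, and 17.5% were higher and 16.2% lower at 3 d. The interaction was called for 4 of 25, where 2.87% of all symbols shifted towards the core and 3.03% towards the periinfarct, namely Pcolce, Adamts2, Loxl1 (1.33, adjusted p = 0.0241) and, towards the periinfarct, P4ha3 (-1.56, SE 0.43, adjusted p = 0.0274), a catalytic subunit of prolyl 4-hydroxylase, by limma. With the pool as a fixed block none of the 4 was called, and none with only the arrays of the groups compared in the fit. The P4ha3 call was lost in 8 of 16 fits that left out 1 array. The count was 0 without core pool 9, core pool 10 or periinfarct pool 11 at 3 d, 1 without periinfarct pool 4 at 24 h, 7 without core pool 11 at 3 d and 8 without periinfarct pool 10 at 3 d. The processing genes not called against healthy cortex or between areas or times were Adamts3, Bmp1, Colgalt1, Creb3l1, P3h3, P3h4, P4ha1 and P4ha3, with differences from -0.72 (P4ha3) to 0.95 (Colgalt1).

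Some processing counts turned on single pools. The 4 calls in the periinfarct at 3 d, Plod2, Fkbp10, Crtap and Serpinh1, became 2 without periinfarct pool 9 or 10 or healthy pool 19, 7 without periinfarct pool 12 and 8 without pool 11, when Loxl1, Loxl2, P4hb and Plod1 were called too, and 0 with normexp or with only the arrays compared in the fit. The 4 calls in the periinfarct at 24 h, P4ha2, Lox, Plod2 and Serpinh1, became 2 without periinfarct pool 4. The single call between areas at 3 d became 0 without core pool 9, 10 or 12 or periinfarct pool 11 and 3 to 4 without core pool 11 or periinfarct pool 9 or 10.

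Sham surgery and the contralateral cortex gave no calls. In 10 comparisons of sham and contralateral groups with healthy cortex or with each other, 0 of 490 tests of the 49 genes were called by limma. At an unadjusted p below 0.05 none was higher and 4 were lower, and the share of all symbols at that threshold was not counted. Collagen differences lay between -0.76 (Col1a2, contralateral against sham contralateral at 3 d) and 0.52 (Col8a1, sham ipsilateral against healthy at 24 h), and processing differences between -0.78 (Lox) and 0.61 (Creb3l1). In ipsilateral sham cortex Col1a1 differed from healthy cortex by -0.20 at 24 h and 0.30 at 3 d, Col3a1 by -0.20 and 0.20, Col4a1 by 0.44 and 0.10 and Col8a1 by 0.52 and 0.25. None of the 12096 symbols was called in these comparisons, which is 0%.

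With time-matched sham cortex as the control, the counts were as follows. In the core 1 collagen was higher and 5 were lower at 24 h, where 7.65% of all symbols were higher and 2.96% lower, and 11 were higher and 2 lower at 3 d, where 15.7% were higher and 10.2% lower. In the periinfarct 3 were higher and 1 lower at 24 h, where 7.95% and 3.37% of all symbols were, and 5 were higher and none lower at 3 d, where 7.65% and 0.554% were. Of 25 processing genes 14 were higher in the core at 3 d and 5 in the periinfarct at 24 h. Calls against healthy cortex that missed the threshold against sham were Col3a1, Col15a1 and Plod2 in the core at 24 h. In the periinfarct they were Col18a1, Col7a1 and P4ha2 at 24 h and Col3a1, Col5a2 and Serpinh1 at 3 d.

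The other genes of collagen biology were read from fixed lists. Of 12 genes of collagen degradation, the proteases and their inhibitors, 4 rose and 1 fell in the core and 3 rose and 1 fell in the periinfarct at 24 h, and 7 rose and 1 fell in the core and 4 rose in the periinfarct at 3 d. Of all symbols 7.4% rose and 6.66% fell in the core and 8.52% rose and 9.34% fell in the periinfarct at 24 h, and at 3 d 15.7% rose and 12.5% fell in the core and 7.97% rose and 1.17% fell in the periinfarct. Timp1, an inhibitor of matrix metalloproteinases, was highest in the periinfarct at 24 h, at 14.61 against 8.84 (a difference of 5.78, adjusted p = 1.35e-08), while the inhibitor Timp4 fell in the core by 1.58 (adjusted p = 3.59e-07), by limma. Mmp3, a stromelysin, was at 5.49 in the core at 24 h against 2.11 in healthy cortex (a difference of 3.38, adjusted p = 6.68e-05 by limma), but it was well above background on only 1 of 4 healthy arrays, so that the size of the difference rests on signals near background. Of 5 genes of collagen receptors, Itgb1, the beta 1 integrin subunit, rose in the core at 3 d (1.46), and Itga1 in the periinfarct at 24 h (1.18). Itga10 was well above background on 0 of 4 core arrays at 24 h and 2 of 4 healthy arrays, and was at least 1.36-fold lower in the core (measured means 1.80 and 3.17, adjusted p = 0.002 by limma), a bound set by the lowest signal well above background on each core array.

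Genes for fibril partners, proteins that bind collagen fibrils, moved in both directions at 24 h. Of 10, 3 rose and 3 fell in the core and 4 rose and 2 fell in the periinfarct, and at 3 d 8 and 7 rose and none fell, which are larger shares of risers than the 7.4% and 8.52% of all symbols at 24 h and the 15.7% and 7.97% at 3 d. Ogn (osteoglycin) fell by 3.79 (adjusted p = 4.49e-07) and Fmod (fibromodulin) by 2.80 (adjusted p = 1.52e-06) in the core at 24 h, and Tnc (tenascin C) and Fn1 (fibronectin) rose by 3.57 and 3.11 in the core at 3 d (adjusted p = 4.85e-07 and 2.45e-10), by limma. Dcn, Lum and Ogn stand in this list and in the fibroblast list alike. Of 13 basement membrane partners 1 rose in each area at 24 h, a share near that of all symbols, 6 rose and 1 fell in the core at 3 d and none was called in the periinfarct at 3 d. Nid2 (nidogen 2) and Lamc1 (laminin gamma 1) rose by 1.99 and 1.70 in the core at 3 d. Lamc3 (laminin gamma 3) was at 1.77 there against 3.35 in healthy cortex and was called lower, but was well above background on only 1 of 4 core arrays. Of 5 inducers of collagen synthesis 2 rose in each area at 24 h and 1 in each area at 3 d, among them Tgfb2, by 1.59 in the core at 24 h (adjusted p = 1.26e-09 by limma), and Tgfb1, by 3.13 in the core at 3 d (adjusted p = 5.85e-08 by limma).

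Several members had more than 1 tested probe. For 11 called genes there were 13 further probes. The first probes of those genes were called in 36 comparisons, which gave 43 pairs of a further probe and a called comparison, and the further probe had the same sign in 41 pairs and was called in 31. For the 2 further probes of Col1a1 and the 1 of Col1a2 all 4, 4 and 3 comparisons were called again. Of the 12 pairs not called again, 4 were those of Col4a1 and 5 those of Plod2, whose second probe was well above background on no healthy array. Slides held 4 arrays each, and for 6 of the comparisons 1 slide held an array of both groups. Within it every called member kept its direction: 10 of 10 in the core at 24 h, 10 of 10 in the periinfarct at 24 h, 26 of 26 in the core at 3 d and 11 of 11 in the periinfarct at 3 d, against healthy cortex. These arrays were among those that gave the calls. Wherever the arrays of the groups did not overlap, as for every called member in the core at 3 d, this outcome was fixed in advance. The counts are therefore no separate test of the calls.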

How the data were processed

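Cortical RNA of 44 samples in 11 groups was hybridised to one-colour Agilent arrays, 4 per group. Per the file headers, the authors read the signal intensities with Agilent Feature Extraction 10.7.3.1, which subtracted the background and applied no normalization between arrays. Deposited with each spot are flags (0 or 1) for signal above background, saturation and unevenness. A further deposited file holds the authors' normalised log2 data for 20395 probes, including 20 controls, which were thresholded, quantile normalised and filtered per the paper's methods, and it served as an alternative here. The kit named in the labels is one for miRNA, whereas the methods describe one-colour labelling of mRNA.

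Processed signals below 1 were set to 1, outlier spots to missing, and log2 values quantile normalised over the 43379 spots, of 45018 on an array, that were not controls. Spots of a probe were averaged. Of 41012 probes 30538 were kept: above the 20th percentile, and significantly above background, on at least 75% of the arrays of some group, with a coefficient of variation above 2.5%. No spot used was saturated (0). Groups were compared with limma 3.58.1 in R 4.3.3 (with the packages statmod 1.5.0 and data.table, version 1.17.8), with 1 mean per group over all 44 arrays and Benjamini-Hochberg adjustment within each comparison. A call needed an adjusted p below 0.05 and 2-fold. Each gene was read from the probe that was brightest on average. Names came from RefSeq by accession (16815 probes) or from the authors' tables (2502), and 21695 probes stayed unnamed. The fit was tested on simulated data.

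Arrays of the 3 ischemic areas that share a pool number come from the same rats, so the pool was also fitted as a random and a fixed block. Deviations from the group means of same-pool core and periinfarct arrays correlated at 0.148 on average (-0.0185 to 0.246) at 24 h and at -0.00417 (-0.247 to 0.281) at 3 d. The random block used 1 correlation within pools, 0.22, for all groups. That value is above both averages, so the random-block errors for core against periinfarct can be too small. The highest correlation of any 2 arrays was 0.9917, and none was counted as a copy.

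The members and lists were chosen with earlier results of these data known, so counts over them are descriptions. Members called at least once are named. Values on each array of 5 groups are given for 17 members: up to 4 per class with the largest called change from healthy cortex, and any called in opposite directions. Of the pathway lists, the 2 largest changes in each direction are named. Other settings tried were normexp background correction (offset 50), scaling to the 75th percentile, other filters, the mean of a gene's probes, sham controls, slide blocks and leaving out each array. Leaving out pool 11 was chosen after seeing the data. The contralateral side of healthy animals was not analysed here.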

Additional observations from a re-analysis of the deposited data

Results flagged for a closer look

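In 85 groups of 4 arrays (17 genes in 5 groups), 3 held an array far from the other 3 by Dixon's criterion, where chance alone gives about 1 in 20. Col11a2 in the core at 24 h was lowest in pool 3 (log2 signal 10.64, next 10.78), Plod2 in the periinfarct at 3 d was lowest in pool 11 (3.48, next 5.01), and Serpinh1 in the periinfarct at 24 h was highest in pool 4 (12.51, next 11.77). The 4 core arrays of Col11a2 spanned only 10.64 to 10.81. The causes were not tested.

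The difference of core minus periinfarct changed between 24 h and 3 d for 11 genes by limma's interaction term, each a log2 difference of differences. Towards the core at 3 d these were Col3a1 (2.70), Col8a1 (2.53), Col1a1 (2.34), Col1a2 (2.20), Col15a1 (2.05), Col18a1 (1.61) and Col5a2 (1.21), and the processing genes Pcolce (1.92), Adamts2 (1.57) and Loxl1 (1.33). P4ha3 moved the other way (-1.56). With the pool as a fixed block none of the 11 was called.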

How the results depend on the processing

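Precision was limited by 4 arrays per group, and dim probes (Plod2, Col23a1) by their distance from background. The 95 calls of members against healthy cortex, between areas, between times and in the interaction kept their direction under every alternative computed. They missed the threshold in 30 cases with normexp, in 30 of 95 when only the arrays of the groups compared were fitted, in 13 with slide as a fixed block, in 6 with the mean of the probes of each symbol, in 4 with 75th percentile scaling, in 2 with no probe filter, in 9 of 57 with sham controls and in 11 of 15 with the pool as a fixed block. The causes were not tested.

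Collagen counts moved as follows. Core against periinfarct at 24 h (0) became 3 with the pool as a random block and 1 without pool 11. Core against periinfarct at 3 d (3) became 0 with only the arrays compared and 5 with the random block, with a stricter probe filter and in the authors' table. The periinfarct at 24 h (6) became 3 with normexp. The periinfarct at 3 d against 24 h (2) became 1 with 75th percentile scaling, with normexp and with slide as a block, 0 with only the arrays compared and 5 without pool 11. The periinfarct at 3 d (7) became 0 with only the arrays compared. The interaction (7) became 0 with only the arrays compared and with the pool as a fixed block.

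Processing counts moved as follows. The core at 24 h (2) became 7 with no fold minimum, 0 with normexp and 1 with slide as a block, and the core at 3 d against 24 h (11) became 5 with normexp. The core at 3 d (14) became 10 with normexp, where Plod2, Fkbp10, Crtap and Loxl3 were not called. Core against periinfarct at 3 d (1) became 5 with no fold minimum and 0 with 75th percentile scaling, mean of probes, normexp, slide block or only the arrays compared. With no fold minimum the periinfarct counts became 10 at 24 h (from 4), 12 at 3 d (from 4) and 5 between times (from 1). At 3 d the periinfarct count became 0 with normexp and with only the arrays compared, and 8 without pool 11. The interaction (4) became 2 with normexp and 0 with only the arrays compared and with the pool as a fixed block.

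Leaving out single arrays gave these ranges for collagens: core at 24 h 6 to 8, core at 3 d 10 to 14, periinfarct 3 to 6 at 24 h and 2 to 10 at 3 d, areas 0 to 3 at 24 h and 0 to 8 at 3 d, times 8 to 11 in the core and 0 to 5 in the periinfarct, interaction 0 to 9. For processing genes they were 1 to 3, 12 to 15, 2 to 4, 2 to 8, 0 to 1, 0 to 4, 8 to 13, 1 to 2 and 0 to 8 in the same order. The processing count in the core at 24 h was 1 without core pool 3, core pool 4 or healthy pool 20. For sham and contralateral groups the count was 0 throughout.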

Other observations

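Some collagen probes fell outside the symbols counted above. An unnamed probe described in the array design as alpha 1-VIII collagen was higher in the core at 3 d by 3.08 (adjusted p = 1.12e-07), in the periinfarct at 3 d by 1.83 (adjusted p = 0.00144), in core against periinfarct at 3 d by 1.25 (adjusted p = 0.0315) and in the core at 3 d against 24 h by 3.28 (adjusted p = 8.96e-08), by limma. At 24 h the alpha 1-VIII probe was not called against healthy cortex, at -0.20 in the core and 0.92 (adjusted p = 0.074 by limma) in the periinfarct. A probe described as similar to alpha-3 type IX collagen was higher in the core at 3 d than at 24 h by 1.06 (adjusted p = 0.00191 by limma). The probe described as type IX alpha 2 procollagen and the other unnamed collagen probes were not called in the comparisons between healthy cortex, areas and times. Col2a1, the chain of type II collagen, had 2 probes under a symbol that the authors' normalised table does not hold, neither of which was called in any comparison of ischemic with healthy cortex.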
